A study of Mus musculus with 10 samples.

Results

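The 8 genes described here are 3 D-type cyclins (Ccnd1, Ccnd2, Ccnd3) and 5 inhibitors of cyclin-dependent kinases (CDKs): Cdkn1a, Cdkn1b and Cdkn1c of the Cip/Kip family, and Cdkn2c and Cdkn2d of the INK4 family. They were chosen by name from the 26228 gene symbols used, and all 8 passed the filter on low counts in each comparison. Their UMIs were counted in single endothelial cells (ECs) of mouse femur and tibia. All mice were C57BL/6 and carried Cdh5-mTnG, an endothelial reporter, and lineage-depleted cells positive for GFP and tdTomato were sorted. There were 5 groups, each sequenced by droplet scRNA-seq as 2 libraries. The juvenile group was 3 weeks old and held males and females. The untreated adult group was 12 weeks old, the aged group was 75 weeks old, and the groups given PTH (parathyroid hormone, which builds bone when injected daily) or alendronate (a bisphosphonate, which blocks bone resorption) were 12 weeks old, and all of these were female. By the study's methods the animals of a group were pooled and the experiment was done once. The libraries of a group may therefore differ by technical spread alone, and p-values measure a difference against that spread only.

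D-type cyclins bind Cdk4 and Cdk6, and the complexes phosphorylate the retinoblastoma protein, which frees E2F factors and lets a cell enter S phase. INK4 proteins bind Cdk4 and Cdk6 and keep them from the cyclin. Cip/Kip proteins bind complexes that already hold a cyclin and block Cdk2 above all. Cdkn1a (p21) is a classic p53 target, Cdkn1b (p27) is known for its control by protein turnover, and Cdkn1c (p57) is imprinted and is known from quiescent cells.

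The tables held 47466 cell barcodes. Of these, 46283 had 500 to 6000 genes and under 25% mitochondrial UMIs, and 45070 were kept as ECs because they held at least 2 UMIs of Cdh5, Pecam1, Egfl7 and Kdr together. Total UMIs per library ran from 10653583 to 28419323, and the median EC held between 3116 and 5087.5 UMIs. Pairs of libraries shared at most 1.47% of the barcodes of the smaller one. A cell was given a type when it held at least 2 UMIs of that type's markers. A sinusoidal, arterial or metaphyseal cell also had to hold at least 2 times as many as of each of the other two and fewer than 2 UMIs of the type R markers. A type R cell had to hold more than of Stab2 and of Gja4, with no limit on the metaphyseal markers, of which type R cells held a median of 0 to 3 UMIs per library, against 3 to 6 of their own. This split by group, with medians of 0 in the juvenile and aged libraries, 2 and 1 in the adult, 3 and 2 in the PTH-treated and 1 and 1 in the alendronate-treated libraries. Stab2 gave 17430 sinusoidal ECs, which line the marrow sinusoids. Gja4 gave 4933 arterial ECs. Ramp3 and Aplnr gave 9771 metaphyseal ECs, a type the study places near the growth plate and reports as strongly reduced in older mice. Aplnr is shared with type R ECs, at 610 CPM on average against 1308 in metaphyseal ECs. Type R cells with under 2 UMIs of Timp4 and Aqp7 could therefore be typed as metaphyseal. Timp4 and Aqp7 gave 1980 type R ECs, capillaries that the study places at remodelling bone. Another 10956 cells had no type, 3058 of them because they carried markers of more than 1 type. All 17 markers that the gates did not use were highest in the sums of their own type on average, among them Vcam1 for sinusoidal, Bmx for arterial, Piezo2 for metaphyseal and Car4 for type R ECs. Single metaphyseal cells held few of them. Their median per library was 0 to 2 UMIs of the metaphyseal, 1 to 2 of the sinusoidal and 0 to 2 of the arterial markers outside the gates. Type R rested on few cells in 3 libraries, with 44 and 25 juvenile cells and 28 cells in PTH replicate 1.

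The aged libraries stood apart. Their median ECs held 5087.5 and 4942.5 UMIs, against 3116 to 4206 in the other groups, and gene symbols beginning with U were found in them alone, at 1.52% and 1.53% of UMIs. The series names a pair of kit versions without saying which library had which, so the kit cannot be told apart from age. The part of these differences in the comparisons with the aged group was not tested.

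The genes lie on 5 chromosomes of GRCm38 in GENCODE M21. Ccnd1 is at chr7:144929931-144939925 on the minus strand, Ccnd2 at chr6:127125162-127152193 on the minus strand and Ccnd3 at chr17:47505051-47599691 on the plus strand. Of the inhibitors, Cdkn1a is at chr17:29090976-29100727 (plus), Cdkn1b at chr6:134920401-134925513 (plus), Cdkn1c at chr7:143458339-143461050 (minus), Cdkn2c at chr4:109660876-109667189 (minus) and Cdkn2d at chr9:21288410-21291407 (minus). Exons of 5 of them overlap exons of a gene on the opposite strand: LTO1 for Ccnd1, 9330179D12Rik and Gm43126 for Ccnd2, Bysl for Ccnd3, AC167363.2 for Cdkn1a and Gm44732 for Cdkn1c. The strand setting of the counting is not given in the sources used here, so reads of such a pair cannot be told apart.

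The first question was how the genes differ between the 4 types of ECs. UMIs were summed over the cells of each type in each library, and the 40 sums were compared within libraries with edgeR. A gene was called at an adjusted p under 0.05 over 11340 genes and a difference of at least 1.5-fold. Levels are CPM, counts scaled to a common total of UMIs per sum, with TMM factors. Type R ECs had 3.52-fold more Cdkn1a than the mean of the other types, metaphyseal ECs 2.14-fold more Ccnd1, arterial ECs 2.48-fold less Ccnd1 and 2.47-fold less Cdkn1c, and sinusoidal ECs 1.95-fold less Ccnd2. Against the mean of the other 3 types, 4 of 8 members were called in sinusoidal ECs (28.7% of all genes tested were called), 2 in arterial (18.8%), 3 in metaphyseal (13.7%) and 2 in type R ECs (22.5%). Between pairs of types, 4 members were called for sinusoidal and arterial ECs (33.7%), 3 for sinusoidal and metaphyseal (22.2%), 4 for sinusoidal and type R (35.4%), 3 for arterial and metaphyseal (21%), 3 for arterial and type R (17.8%) and 4 for metaphyseal and type R ECs (24.2%). Ccnd3 was called in no contrast between types. Genes of blood cells and of stress also differed between types. In sinusoidal ECs Elane, Mpo, Hba-a1, Fosb, Fos and Junb were called higher and Atf3 lower than in the rest, in type R ECs Cd52 and Atf3 were higher, Fosb and Egr1 were lower in arterial ECs, and Fosb and Cd52 in metaphyseal ECs. The summed immediate-early level had medians of 2058 CPM in sinusoidal, 1122 in arterial, 1018 in metaphyseal and 1207 in type R ECs, the haematopoietic sum 66.1, 40.4, 49.9 and 40.1 CPM, and the haemoglobin sum 714, 230.0, 256 and 210.2 CPM in the same order. Without cells carrying blood genes, all 11 calls of members against the other types were made again, Cdkn2c in sinusoidal (-0.74) and Cdkn2d in arterial ECs (0.64) were called as well, and the part of the immediate-early genes was not tested. Some differences from the other types lay just under 1.5-fold and passed it when 1 library was left out. These were Ccnd1 in type R ECs (0.57 on the log2 scale, and 0.59 to 0.63 without either adult or either alendronate library), Cdkn1c in type R ECs (0.56, and 0.61 and 0.62 without PTH replicate 1 or 2) and Cdkn1b in type R ECs (0.57, and 0.60 without PTH replicate 2). Cdkn2c in sinusoidal ECs (-0.58) passed without adult replicate 2, either aged library or alendronate replicate 1 (-0.60 to -0.66).

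**Figure D1:**
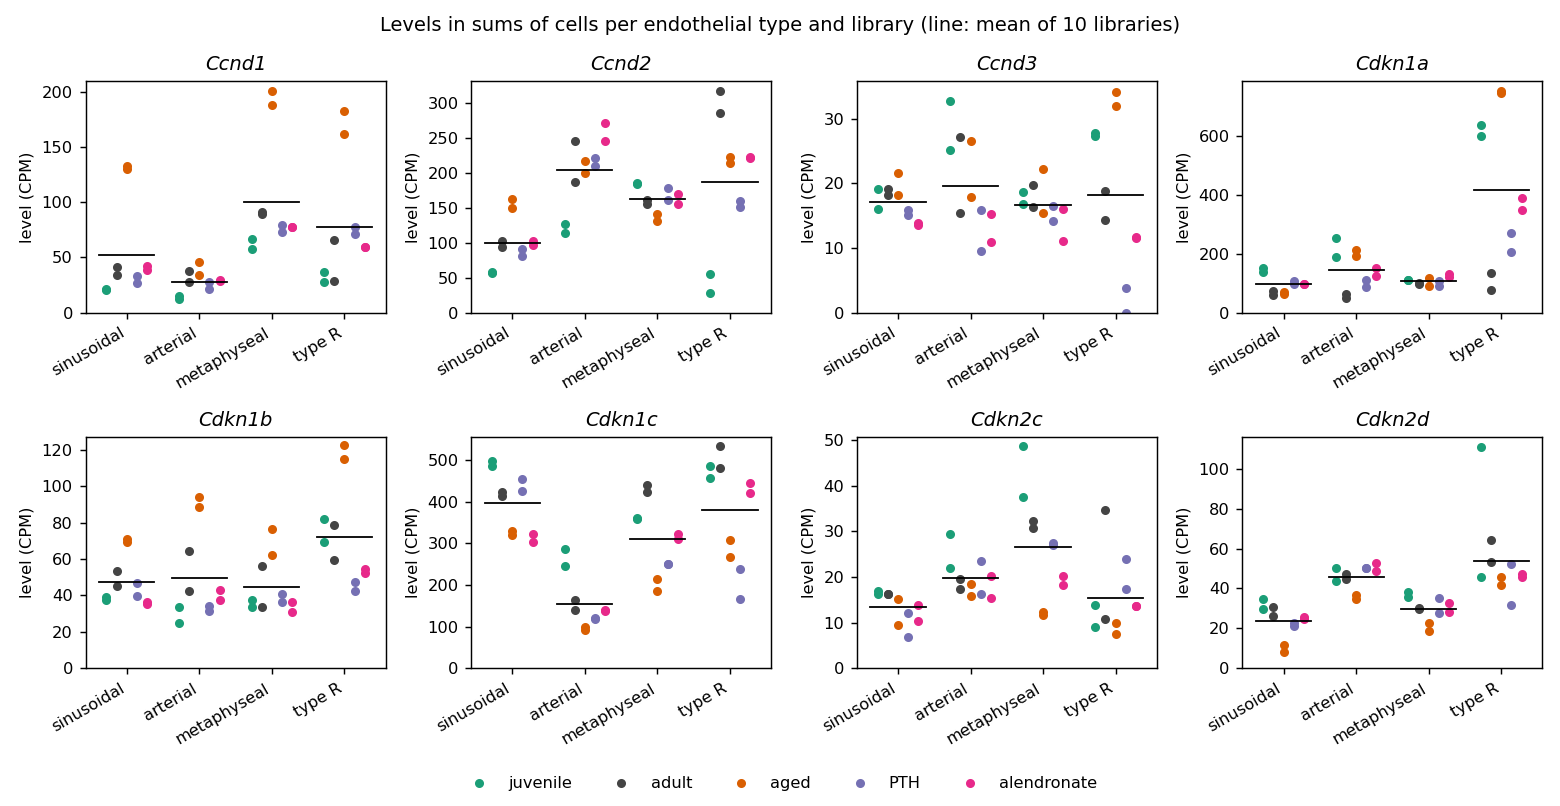
Level of each gene (CPM, vertical axis, starting at 0) in the 4 endothelial types; each point is 1 library, coloured by group, and the line is the mean of 10 libraries. Cdkn1a reached 753 CPM in type R ECs and stayed between 90.2 and 132 CPM in metaphyseal ECs, and Ccnd1 was lowest in arterial ECs in all 10 libraries.

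Ccnd1, a cyclin that growth factors induce, ran from 57.3 to 200.1 CPM in metaphyseal ECs, with a median of 78.6 over 10 libraries. In type R ECs it ran from 27.8 to 182 (median 62.7), in sinusoidal ECs from 20.1 to 133 (median 36.3) and in arterial ECs from 12.5 to 45.9 (median 28.3). Metaphyseal ECs were highest in 9 of 10 libraries and arterial ECs lowest in 10 of 10. The order metaphyseal, type R, sinusoidal, arterial held on average, but the first pair did not differ by 1.5-fold (log2 fold change 0.39 ± 0.15 SE). Each other step passed: type R over sinusoidal ECs by 1.63-fold (adjusted p = 0.000139) and sinusoidal over arterial ECs by 1.63-fold (adjusted p = 2.75e-05). The last step rested on the aged libraries: its log2 fold change was 0.71, fell to 0.53 and 0.57 without aged replicate 1 or 2 and to 0.40 without both, and was then below 1.5-fold. In the adult libraries alone Ccnd1 was called neither for sinusoidal minus arterial (0.20) nor for sinusoidal minus type R ECs (-0.38). Arterial minus type R ECs was not called there either (-0.58, adjusted p = 0.295), while metaphyseal minus type R ECs was (0.88). Without both aged libraries Ccnd1 stayed called as higher in metaphyseal (1.12) and lower in arterial ECs (-1.04) than in the rest.

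Ccnd2, another cyclin partner of Cdk4 and Cdk6, had its lowest median in sinusoidal ECs, at 57.1 to 163 CPM (median 95.5). It ran from 113 to 272 (median 214) in arterial, 131 to 185 (median 161) in metaphyseal and 27.8 to 317 (median 218) in type R ECs. Sinusoidal ECs differed from the mean of the rest by -0.97 ± 0.12 on the log2 scale (adjusted p = 1.42e-08). They were lowest in 6 of 10 libraries, above metaphyseal ECs in 2 and above type R ECs in 2. The other 3 types were not called against each other over all libraries. In the adult libraries alone Ccnd2 was called higher in type R ECs than in the rest (1.03, adjusted p = 1.01e-07). Metaphyseal minus type R ECs was then called as well (-0.95, adjusted p = 1.3e-06, against -0.25 over all libraries). The lowest type R value came from a juvenile library and rested on 2 UMIs.

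Ccnd3 had means of 17.0 ± 2.59 CPM in sinusoidal, 19.6 ± 7.76 in arterial, 16.7 ± 3.04 in metaphyseal and 18.1 ± 11.8 in type R ECs (SD, n = 10 libraries). The ranges of the 4 types overlapped. The interval of the difference between sinusoidal and metaphyseal ECs was -0.22 to 0.26 on the log2 scale.

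Cdkn1a, the p53 target, was highest in type R ECs, which held 75.2 to 753 CPM (median 369). Arterial ECs held 48.5 to 252 (median 138), metaphyseal ECs 90.2 to 132 (median 109) and sinusoidal ECs 61.1 to 153 (median 96.7). Type R ECs were highest in 9 of 10 libraries, and the exception was an adult library. The log2 fold change against the other types was 1.82 ± 0.17 (adjusted p = 4.07e-11). In the adult libraries alone it was 0.59 (adjusted p = 0.0539), which is not a call. The lower level of Cdkn1a in metaphyseal ECs (-0.63 ± 0.16, adjusted p = 0.00208) turned to 0.43 in the adult libraries alone. It fell under 1.5-fold without aged replicate 1 (-0.57), aged replicate 2 (-0.54), juvenile replicate 1 (-0.57) or juvenile replicate 2 (-0.55). It fell under 1.5-fold also with DESeq2 (-0.57), with total counts (-0.56) and without both aged libraries (-0.46). Sinusoidal ECs were called lower than the rest (-0.91), and not in the adult libraries alone (-0.30). In the adult libraries alone arterial ECs were called lower than the rest (-0.72) and than metaphyseal ECs (-0.86). Over all libraries these differences were -0.28 and 0.26, and neither was called. After each cell was thinned to 1000 UMIs, 29.7 ± 16.7% of type R ECs had a UMI of Cdkn1a, against 11.7 ± 5.60% of arterial, 8.55 ± 1.35% of metaphyseal and 6.57 ± 1.75% of sinusoidal ECs (SD, n = 10 libraries). Before thinning these shares were 47.5%, 29.9%, 26.0% and 20.2%. No cell type known to lack Cdkn1a was in the sort, so the share that free RNA gives was not measured.

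Cdkn1b was highest in type R ECs in 10 of 10 libraries, at 42.4 to 123 CPM (median 64.6). The other medians were 42.4 CPM in sinusoidal, 39.9 in arterial and 37.0 in metaphyseal ECs. The difference of type R ECs from the mean of the other types was 1.48-fold and so just short of a call, and among pairs of types, type R and metaphyseal ECs passed (1.58-fold, adjusted p = 8.45e-07). Taken as metaphyseal minus type R, that pair was -0.66 on the log2 scale and fell under 1.5-fold without both aged libraries (-0.56). It did so also with total counts (-0.58), and in the adult libraries alone its adjusted p was 0.084.

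Cdkn1c, known from quiescent cells, was lowest in arterial ECs in 10 of 10 libraries. Arterial ECs held 91.5 to 286 CPM (median 139), against 304 to 498 (median 418) in sinusoidal, 184 to 439 (median 317) in metaphyseal and 167 to 534 (median 433) in type R ECs. The log2 fold change of arterial ECs against the mean of the rest was -1.30 ± 0.10 (adjusted p = 1.28e-13). This depended on how types were drawn. With types taken from the markers outside the gates the difference was -0.46, and that between arterial and metaphyseal ECs turned from -1.06 to 0.24 (adjusted p = 0.220). Metaphyseal ECs were then called lower than the rest (-0.78, adjusted p = 1.08e-05, against 0.11 with the gates). They were also called lower than type R (metaphyseal minus type R -0.76, against -0.34) and sinusoidal ECs (sinusoidal minus metaphyseal 1.34, against 0.39). The higher level in sinusoidal ECs (0.63 ± 0.09) was close to the limit and fell below it without PTH replicate 1 (0.56) or PTH replicate 2 (0.57). It was also below it with total counts (0.54), with a gate of 3 UMIs (0.58) and in the adult libraries alone (0.38).

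Cdkn2c rested on few UMIs. Metaphyseal ECs held 11.6 to 48.7 CPM (median 27.1), arterial ECs 15.3 to 29.4 (median 19.1), sinusoidal ECs 6.84 to 17.0 (median 14.5) and type R ECs 7.55 to 34.6 (median 13.6), the last from 1 to 14 UMIs. The higher level in metaphyseal ECs (0.68 ± 0.12, adjusted p = 1.15e-05) was 0.11 (adjusted p = 0.507) once cycling cells were left out, 0.41 with types from other markers and 0.52 without the deepest cells, none of them a call. Metaphyseal ECs held 349 of the 1172 cycling cells. RefSeq lists a second start of Cdkn2c within the gene, and the window before it, outside the annotated exons, holds a match to TTTCGCG, letters of the kind E2F factors bind. It is printed because Cdkn2c was the member that rose most in cycling cells, as described further on. The 237 bases before that start are chr4:109665373-109665609 of GRCm38.p6 on the minus strand, from RefSeq, written 5′ to 3′ with the match in capitals, which begins 200 bases before the start.

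Cdkn2c: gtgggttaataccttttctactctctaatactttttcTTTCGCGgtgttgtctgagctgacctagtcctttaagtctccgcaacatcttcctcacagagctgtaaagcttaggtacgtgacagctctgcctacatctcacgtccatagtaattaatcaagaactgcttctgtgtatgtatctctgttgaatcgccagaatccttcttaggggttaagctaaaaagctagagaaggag

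These letters, searched on both strands (TTTCGCG or CGCGAAA), occur in 279 of 32851 windows of 300 bases around RefSeq starts, or 0.849%. Windows were found for 5 members (Cdkn1a, Cdkn1b, Cdkn2c, Cdkn2d and Ccnd3), 8 windows in all, and 1 of them held the letters. A match is a description of the sequence and not a site of binding.

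Cdkn2d was lowest in sinusoidal ECs in 9 of 10 libraries, at 8.05 to 34.8 CPM (median 25.3). It ran from 18.7 to 38 (median 29.8) in metaphyseal, 34.6 to 52.6 (median 47.9) in arterial and 31.7 to 111 (median 46.7) in type R ECs. Sinusoidal ECs were 1.80-fold below the rest (adjusted p = 5.63e-11) and type R ECs 1.68-fold above it (adjusted p = 5.58e-06). Type R and arterial ECs were not called against each other (log2 fold change of arterial minus type R -0.18, interval -0.45 to 0.084). Without both aged libraries the type R difference was 0.55, under 1.5-fold. With types taken from the markers outside the gates it was 0.49, and metaphyseal minus type R ECs (-0.58) and arterial minus metaphyseal ECs (0.56) also fell under 1.5-fold.

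The second question was how the genes differ between ages and treatments. Each of the other groups was set against the same 2 adult libraries, so these comparisons share their controls. The juvenile group held both sexes and the adult group females only, so age and sex cannot be told apart in the juvenile comparisons. Over all ECs of a library, Cdkn1a was higher in juvenile, aged and alendronate-treated mice, and the aged group also had more Ccnd1 and less Cdkn1c and Cdkn2c. Of the 8 members, 1 was called in juvenile (16.3% of 16084 genes tested were called), 4 in aged (50.9%), 0 in PTH-treated (9.53%) and 1 in alendronate-treated mice (6.58%). In the PTH comparison edgeR gave 7 members an unadjusted p under 0.05, all of them below 1.5-fold, and DESeq2 called 0. The shares of the types moved with the groups. The share of type R ECs went from 0.643% to 1.05% of ECs in juvenile, 2.54% to 2.85% in adult, 11.5% to 11.8% in aged, 1.29% to 2.65% in PTH-treated and 7.08% to 7.44% in alendronate-treated libraries. That of sinusoidal ECs was 57.6% to 57.9% in juvenile, 45.7% to 45.9% in adult, 22.8% to 23.2% in aged, 23.3% to 27.7% in PTH-treated and 36.2% to 37.5% in alendronate-treated libraries. That of metaphyseal ECs was 21.5% to 21.8% in juvenile, 18.2% to 18.5% in adult, 16% to 17.0% in aged, 35.9% to 39.0% in PTH-treated and 14.5% to 14.6% in alendronate-treated libraries, and that of arterial ECs 3.80% to 4.55% in juvenile, 7.67% to 8.10% in adult, 16.6% to 17.6% in aged, 14.1% to 14.7% in PTH-treated and 13.1% to 13.1% in alendronate-treated libraries. The types differ in Ccnd1, Ccnd2, Cdkn1a and Cdkn1c, as described above, and a change in the mix of cells and a change of level within cells cannot be told apart in these sums.

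Cdkn1a stood at 79.8 and 71.1 CPM in the adult libraries and above that in each of the other 8. It was 140.4 and 148 in juvenile (log2 fold change 0.94 ± 0.05, adjusted p = 3.03e-08) and 159 and 152 in aged libraries (1.04 ± 0.05, adjusted p = 1.11e-09). It was 106 and 106 in PTH-treated (0.49 ± 0.06, adjusted p = 2.21e-05, under 1.5-fold) and 129.6 and 129 in alendronate-treated libraries (0.78 ± 0.05, adjusted p = 9.36e-07). None of these groups overlapped the adult one. The 6 immediate-early genes Fos, Fosb, Jun, Junb, Egr1 and Atf3, which respond to stress such as the dissociation of a tissue, also differed. Their summed level was 1640.0 to 1642 CPM in adult, 940.3 to 987 in juvenile, 602 to 653 in aged, 1483 to 1623 in PTH-treated and 1952 to 1964 in alendronate-treated libraries. Of these genes 4 were lower in juvenile, 4 lower and 1 higher in aged, and 1 higher in alendronate-treated ECs. Their part in the levels of Cdkn1a was not tested.

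Ccnd1 was 51.3 and 46.6 CPM in adult and 107 and 111 in aged libraries, a 2.23-fold rise (adjusted p = 1.21e-09). In juvenile libraries it was 33.6 and 32.0 CPM, 1.49-fold below the adult level (-0.58 on the log2 scale), which misses the limit by little. It passed the limit without adult replicate 2 (-0.64) or juvenile replicate 1 (-0.61), so that 2 members were called in place of 1. Without adult replicate 1 it was -0.50 and Cdkn1b was the second member called (-0.61, against -0.43 with all libraries).

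Cdkn1c stood at 371 and 381 CPM in the adult and 193 and 198 CPM in the aged libraries (log2 fold change -0.94 ± 0.04, adjusted p = 9.80e-11). In PTH-treated libraries it was 267 and 259 CPM and in alendronate-treated ones 272 and 262, both under the adult values but by less than 1.5-fold. Juvenile libraries had 449.6 and 447 CPM, above the adult ones by less than 1.5-fold. Cdkn2c was 26.0 and 25.6 CPM in adult and 12.2 and 15.2 CPM in aged libraries (-0.91 ± 0.10, adjusted p = 2.98e-06), and its log2 fold change was -0.41, which is not a call, when cycling cells were left out. Cycling cells made up 1.48% and 1.47% of aged ECs and 2.53% and 2.75% of adult ECs. Cdkn2d was 25.4 and 25.2 CPM in aged against 39.8 and 35.8 in adult libraries, a 1.49-fold difference (-0.58) that was called without either juvenile, either alendronate-treated, adult replicate 2 or PTH replicate 1 library (-0.60 to -0.68). Cdkn1b was 74.7 and 72.9 CPM in aged and 43.9 and 57.3 in adult libraries, a 1.46-fold difference (0.55) that was called without adult replicate 2 (0.72).

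The aged comparison depended on the scaling. With TMM, 4092 genes were called higher and 4102 lower in aged ECs. With total counts, which moved the median log2 fold change of all genes to 0.36, 6242 were higher and 2273 lower. On that scale Cdkn1a (log2 fold change 1.40), Ccnd1 (1.51) and Cdkn1c (-0.59) kept their calls, Cdkn2c lost its call (-0.55) and Cdkn1b gained one (0.90).

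RNA of blood cells differed between the groups as well. All 6 haematopoietic marker genes (Ptprc, Cd52, Coro1a, Laptm5, Elane, Mpo) were called lower in juvenile and in PTH-treated libraries, with summed levels of 53.8 to 58.0 CPM in juvenile, 215 to 443 in PTH-treated and 550.0 to 661 in adult libraries. The aged libraries had 164 to 226 CPM, with 2 genes higher and 2 lower, and the alendronate-treated ones 845 to 1088, with 1 higher. The 4 haemoglobin genes were called lower in PTH-treated and alendronate-treated libraries, and 1 was called higher in aged ones. With cells carrying such genes left out, the log2 fold change of Cdkn1a was 0.96 in juvenile, 1.14 in aged and 0.86 in alendronate-treated ECs, all called.

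Within types, the differences were tested again in sums of 1 type. The type R and arterial ECs of every other group had more Cdkn1a than those of the adult group, while sinusoidal ECs did so by 1.5-fold only in the juvenile group and metaphyseal ECs in none. In type R ECs Cdkn1a was 138 and 76.7 CPM in the adult libraries, from 159 and 139 cells. It was 664 and 709.9 CPM in juvenile, 797 and 777 in aged, 222 and 273 in PTH-treated and 382 and 346 in alendronate-treated libraries. No library of these 4 groups reached down to the adult values. Over the 10 libraries the type R sums held 21 to 897 UMIs of Cdkn1a (median 103). The rises were 6.28-fold in juvenile (adjusted p = 4.24e-08), 7.22-fold in aged (adjusted p = 9.87e-11), 2.36-fold in PTH-treated (adjusted p = 0.00273) and 3.34-fold in alendronate-treated mice (adjusted p = 6.0e-06). That under PTH lost its call without adult replicate 2 (log2 fold change 0.88) or without PTH replicate 2 (1.01), which leaves 28 treated cells. The comparison was made again with type R cells that held fewer than 2 UMIs of the metaphyseal markers, a setting added after the data were seen. It kept 78 and 76 adult, 226 and 222 aged and 253 and 265 alendronate-treated cells, 32 of juvenile replicate 1 and 91 of PTH replicate 2, while juvenile replicate 2 (18 cells) and PTH replicate 1 (12 cells) were left out. Those groups were then 1 library each, assumed to vary like the rest. The log2 fold changes of Cdkn1a were 3.34 in juvenile, 3.67 in aged, 2.35 in PTH-treated and 2.58 in alendronate-treated type R ECs, and each was called. Ccnd1 (1.39) and Cdkn1c (-1.07) stayed called in aged type R ECs. Lost calls were Cdkn1b in aged (0.46, adjusted p = 0.232), Ccnd2 in juvenile (-2.16, adjusted p = 0.0542), and Ccnd2 (-0.61, adjusted p = 0.611) and Cdkn1c (-0.92, adjusted p = 0.0754) in PTH-treated type R ECs.

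Other lists moved in type R ECs too. The summed immediate-early level was 1341 to 1446 CPM in adult, 594 to 648 in juvenile, 628 to 732 in aged, 1188 to 1341 in PTH-treated and 2499 to 2694 in alendronate-treated type R ECs. Of the 6 genes, 3 were called lower in juvenile, 3 lower and 1 higher in aged, 1 lower in PTH-treated and 4 higher in alendronate-treated type R ECs. The haemoglobin sum of aged type R ECs was 358 to 19796 CPM against 205 to 225 in adult ones, with 4 of 4 genes higher, and the haematopoietic sum 124 to 231 against 7.30 to 9.64, with 2 of 2 tested genes higher. Without cells carrying blood genes, Cdkn1a in type R ECs stayed called at log2 fold changes of 2.59 in juvenile, 2.92 in aged, 1.16 in PTH-treated and 1.72 in alendronate-treated mice. The part of the immediate-early genes was not tested.

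**Figure D2:**
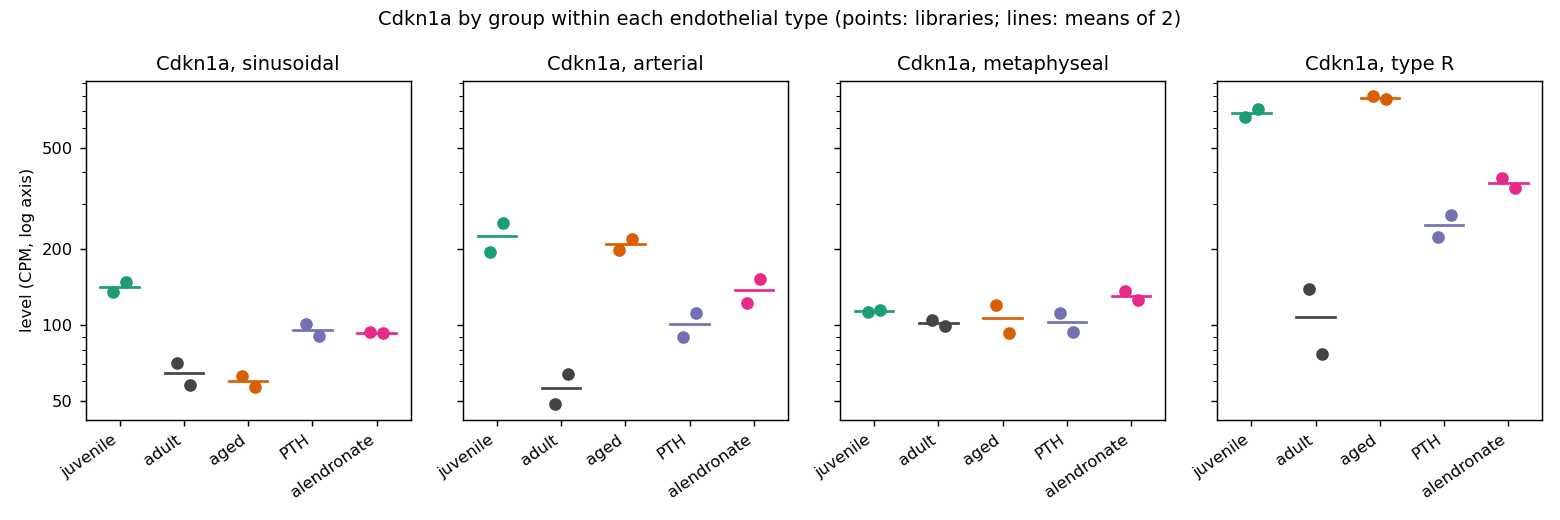
Level of Cdkn1a (CPM, log axis shared by the panels) in each library, by group, for sums of 1 endothelial type; lines are means of 2 libraries. In arterial and type R ECs the adult group is lowest, and in metaphyseal ECs all 10 libraries lie between 93.2 and 136 CPM.

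In arterial ECs Cdkn1a was 48.8 and 64.1 CPM in adult, 194 and 253 in juvenile, 198 and 219.5 in aged, 89.5 and 112 in PTH-treated and 122 and 152 in alendronate-treated libraries, and no group overlapped the adult one. The rises over the adult level were 4-fold in juvenile (adjusted p = 6.21e-08), 3.72-fold in aged (adjusted p = 4.45e-09), 1.83-fold in PTH-treated (adjusted p = 0.00225) and 2.45-fold in alendronate-treated mice (adjusted p = 6.26e-05). The PTH call was lost without adult replicate 1 (0.68) or PTH replicate 2 (0.67). The immediate-early sum of arterial ECs was 1172 to 1250.4 CPM in adult, 544 to 570.2 in juvenile, 548 to 595 in aged, 1113 to 1256 in PTH-treated and 1493 to 1513 in alendronate-treated libraries, and its part was not tested. The haematopoietic sum was 37.2 to 38.4 CPM in adult, 4.78 to 5.63 in juvenile, 16.2 to 138 in aged, 113 to 164 in PTH-treated (Mpo and Elane called higher) and 42.5 to 59.2 in alendronate-treated arterial ECs. The haemoglobin sum was 139 to 256 CPM in adult, 170.4 to 207 in juvenile, 305 to 306 in aged, 33.4 to 34.0 in PTH-treated and 382 to 2373 in alendronate-treated arterial ECs, the last with 3 of 4 genes called higher. Without cells carrying blood genes, a setting added after the data were seen, the log2 fold change of Cdkn1a in arterial ECs was 2.05 in juvenile, 1.98 in aged, 0.95 in PTH-treated and 1.35 in alendronate-treated mice, and each was called. In sinusoidal ECs Cdkn1a was 71.2 and 58.1 CPM in adult and 63.2 and 56.9 in aged libraries, which overlapped, and 135 and 148 in juvenile ones (2.18-fold, adjusted p = 3.05e-09). The PTH-treated (101 and 90.9 CPM) and alendronate-treated sinusoidal ECs (93.6 and 93.4 CPM) lay above the adult ones by less than 1.5-fold, with log2 fold changes of 0.55 and 0.53. They passed that limit without adult replicate 1 (0.70 and 0.69), and the former also without PTH replicate 2 (0.63). In metaphyseal ECs the aged libraries held 119.8 and 93.2 CPM and the adult ones 105 and 98.8, which overlapped. The difference between types was itself tested: the interaction of type and group had an adjusted p of 2.92e-08 for juvenile, 1.66e-12 for aged, 0.00516 for PTH and 0.000317 for alendronate.

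Counts of called members within types stood as follows. In sinusoidal ECs 3 of 8 were called in juvenile (13.4% of all genes tested there), 3 in aged (48.5%), 0 in PTH-treated (3.14%) and 0 in alendronate-treated mice (3.33%). In arterial ECs the counts were 5 (6.79%), 3 (37.7%), 2 (2.18%) and 1 (1.36%) in the same order. Metaphyseal ECs had 0 (12.4%), 4 (43.5%), 1 (3.57%) and 1 (4.61%), and type R ECs 2 (2.05%), 4 (37.7%), 3 (1.31%) and 1 (0.980%). Where edgeR called 0 members, 6 had an unadjusted p under 0.05 in PTH-treated and 5 in alendronate-treated sinusoidal ECs and 5 in juvenile metaphyseal ECs, and DESeq2 called 0 in each. In the aged group 3 of 8 in arterial, 4 of 8 in metaphyseal and 3 of 8 in sinusoidal ECs were near the background share of all genes. Some members were called only when 1 library was left out. In juvenile metaphyseal ECs these were Ccnd1 (-0.64) and Cdkn2c (0.63) without juvenile replicate 1 and Cdkn1b (-0.67) without adult replicate 1, which also gave Cdkn1b in alendronate-treated metaphyseal ECs (-0.75). In aged mice they were Cdkn2c of sinusoidal (-0.86) and Cdkn2d of metaphyseal ECs (-0.69) without aged replicate 2, and Cdkn2c of type R ECs (-1.91) without adult replicate 2. Without cells carrying blood genes, 32 of the 33 calls within types were made again. The exception was Ccnd2 in aged sinusoidal ECs (0.57), and Cdkn2c in alendronate-treated sinusoidal (-0.61) and aged type R ECs (-1.69) and Cdkn2d in aged metaphyseal ECs (-1.09) were called in addition. By interaction tests, 3 of 8 members differed between types in their juvenile effect (9.89% of all genes), 6 in the aged (19.7%), 3 in the PTH (3.17%) and 1 in the alendronate effect (2.34%).

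**Figure D3:**
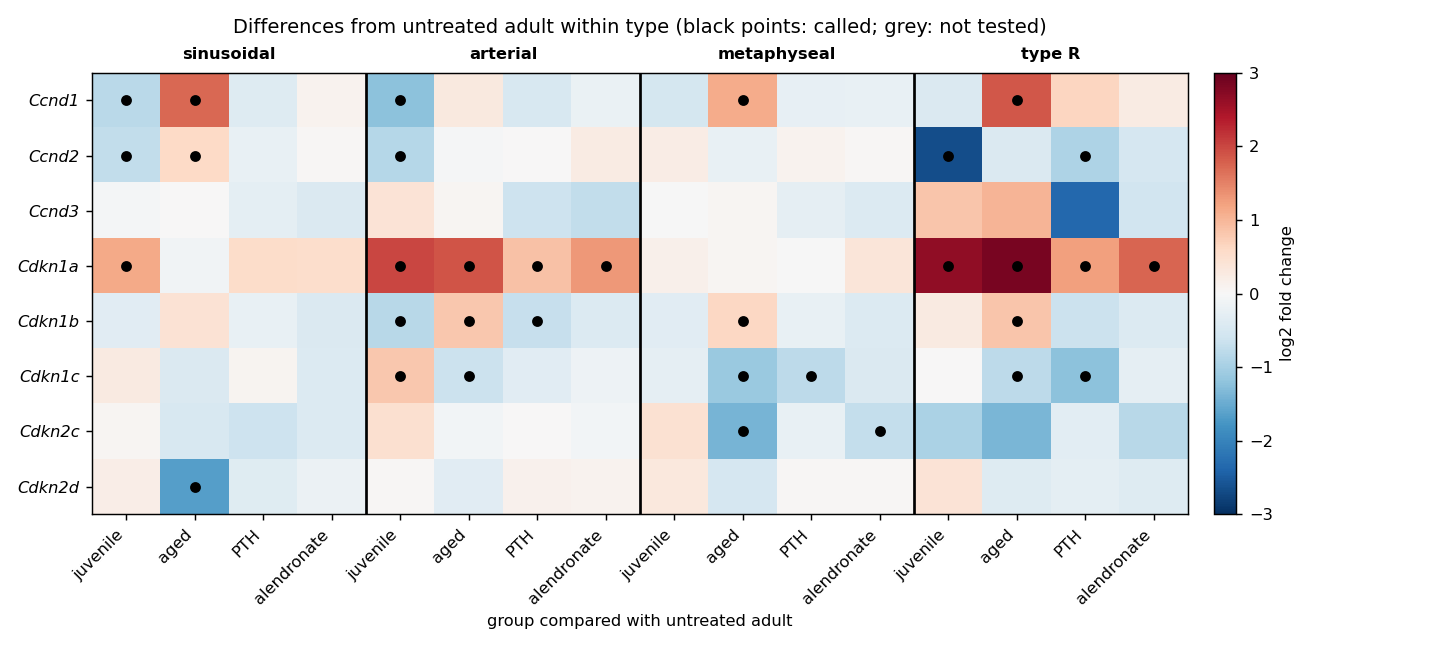
Log2 fold change (colour) of each gene in 4 groups against the untreated adult group, within each endothelial type; black points mark calls. Cdkn1a is called in all 4 groups in arterial and type R ECs, and Ccnd3 in none of the 16 comparisons.

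Ccnd1 was higher in 3 of 4 types of aged ECs. In sinusoidal ECs Ccnd1 was 38.7 and 32.6 CPM in adult and 117 and 119 in aged libraries, a 3.30-fold rise (adjusted p = 3.97e-12). Aged metaphyseal ECs held 204 and 194 CPM against 93.0 and 91.9 in adult ones (2.16-fold, adjusted p = 2.42e-10). Aged type R ECs held 172 and 189 CPM against 67.5 and 29.2 (3.63-fold, adjusted p = 2.60e-06). Over the 10 libraries the type R sums held 2 to 203 UMIs of Ccnd1 (median 30.5). In these 3 types no aged library reached down to the adult values. Other lists moved in these comparisons. In aged sinusoidal ECs 5 of 6 haematopoietic genes were called lower (12.8 to 25.2 CPM summed, against 237 to 529 in adult ones), 3 of 4 haemoglobin genes higher (304 to 3516 against 335 to 817) and 4 of 6 immediate-early genes lower (551 to 557 against 1899 to 2009.8). In aged metaphyseal ECs 1 haematopoietic gene was higher and 1 lower, 4 of 4 haemoglobin genes were higher, and 2 immediate-early genes were higher and 3 lower. Without cells carrying blood genes the log2 fold change of Ccnd1 was 1.70 in sinusoidal, 1.05 in metaphyseal and 1.79 in type R ECs, each called, and the part of the immediate-early genes was not tested. Arterial ECs had 34.8 and 47.3 CPM in aged and 37.7 and 28.3 in adult libraries, which overlapped, and the interaction test gave an adjusted p of 1.91e-07. Without adult replicate 1, which had the higher adult value in type R ECs, the type R log2 fold change went from 1.86 to 2.63. In juvenile mice Ccnd1 was lower in sinusoidal (19.5 and 21.1 CPM, 1.76-fold, adjusted p = 5.40e-06) and arterial ECs (12.7 and 15.5 CPM, 2.34-fold, adjusted p = 0.0181), without overlap with the adult libraries. The arterial call was lost without adult replicate 1 (-1.003), juvenile replicate 1 (-1.11) or juvenile replicate 2 (-1.39), and DESeq2 gave it an adjusted p of 0.072.

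**Figure D4:**
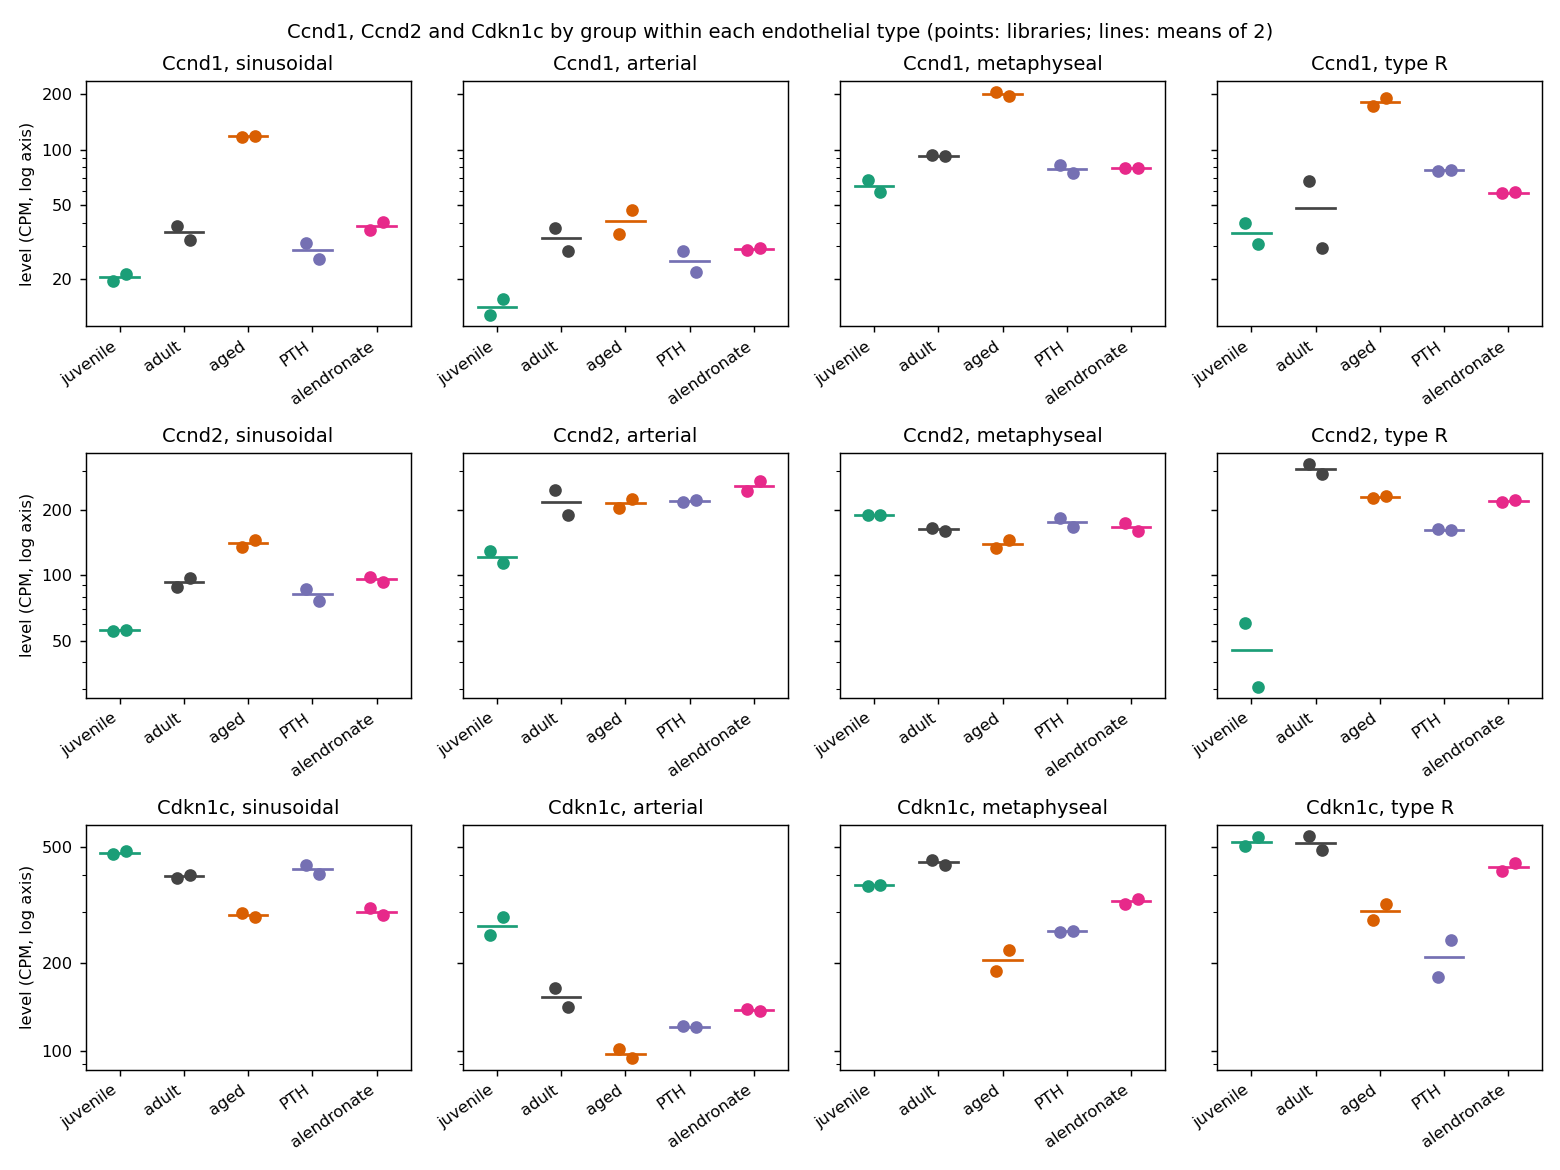
Levels of Ccnd1, Ccnd2 and Cdkn1c (CPM, log axis shared along a row) in each library, by group, for sums of 1 endothelial type; lines are means of 2 libraries. Aged libraries have the highest Ccnd1 in sinusoidal, metaphyseal and type R ECs, and juvenile libraries the lowest Ccnd2 in sinusoidal, arterial and type R ECs.

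Ccnd2 was lower in 3 of 4 types of juvenile ECs. In sinusoidal ECs it was 55.5 and 56.3 CPM in juvenile against 88.9 and 97.6 in adult libraries (1.67-fold lower, adjusted p = 1.78e-07), and in arterial ECs 129 and 114 against 247 and 189 (1.80-fold lower, adjusted p = 0.000224). In type R ECs it was 60.4 and 30.9 CPM against 325 and 292, and in none of the 3 types did the groups overlap. The type R log2 fold change was -2.66 ± 0.33 (adjusted p = 1.31e-05) and rested on 6 and 2 juvenile UMIs. Without juvenile replicate 1 it was -3.35. In juvenile sinusoidal ECs 5 of 6 haematopoietic genes were lower (21.6 to 49.3 CPM summed, against 237 to 529 in adult ones), 4 of 4 haemoglobin genes higher (1067 to 3099 against 335 to 817) and 4 of 6 immediate-early genes lower (1180.2 to 1238 against 1899 to 2009.8). Without cells carrying blood genes, Ccnd2 (-0.73), Ccnd1 (-0.82) and Cdkn1a (1.1) stayed called there, and the part of the immediate-early genes was not tested. Juvenile metaphyseal ECs had 190.2 and 189.9 CPM against 165 and 161, above the adult values by less than 1.5-fold, and the interaction test gave an adjusted p of 4.58e-09. In PTH-treated mice Ccnd2 of type R ECs was 162 and 162 CPM, 1.91-fold lower than in adult ones (adjusted p = 0.00803). This call was lost without any one of the 4 libraries compared, at -0.86 and -1.01 without adult replicate 1 or 2 and -0.92 and -0.95 without PTH replicate 1 or 2. In aged sinusoidal ECs Ccnd2 was 135 and 146 CPM, 1.51-fold higher (adjusted p = 4.86e-07). Its log2 fold change of 0.59 fell below the limit without adult replicate 1 (0.51), aged replicate 2 (0.53) or any 1 of 5 libraries outside the comparison (0.58 each for both juvenile, both alendronate-treated and PTH replicate 1).

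Ccnd3 was called in no group and no type. In PTH-treated type R ECs it had 0 and 2 UMIs against 6 and 4 in adult ones (adjusted p = 0.268). In ECs as a whole it was 14.1 and 14.4 CPM in PTH-treated, 13 and 15.4 in alendronate-treated and 19.6 and 21.1 in adult libraries. Both treated groups lay below the adult one without overlap but by less than 1.5-fold, at -0.51 and -0.52 on the log2 scale. Under alendronate the change passed 1.5-fold without alendronate replicate 2 (-0.64).

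Cdkn1c fell in aged ECs of 3 types by 1.5-fold or more. In metaphyseal ECs it was 451 and 435 CPM in adult and 188 and 221 in aged libraries (2.16-fold lower, adjusted p = 1.26e-11). In type R ECs it was 547 and 489 CPM in adult and 282 and 320.1 in aged libraries (1.72-fold lower, adjusted p = 0.000209), and in arterial ECs 164 and 142 in adult and 102 and 94.2 in aged ones (1.56-fold lower, adjusted p = 3.31e-05). The adult and aged libraries did not overlap in any of the 3. In sinusoidal ECs Cdkn1c was 391 and 402 CPM in adult and 296 and 287 in aged libraries. There it was also lower without overlap, but by less than 1.5-fold (-0.44). The arterial call was lost without adult replicate 1 (-0.55) and with total counts (-0.58). In PTH-treated mice Cdkn1c was 256 and 257 CPM in metaphyseal ECs (1.72-fold below adult, adjusted p = 3.39e-08) and 179.5 and 239 in type R ECs (2.34-fold below, adjusted p = 0.00034). PTH-treated sinusoidal ECs held 433 and 404 CPM and adult ones 391 and 402. The interaction of type and PTH had an adjusted p of 2.0e-07. In juvenile mice arterial ECs held more Cdkn1c (250.1 and 287 CPM, 1.76-fold, adjusted p = 2.59e-05), whereas juvenile metaphyseal ECs, at 368 and 371 CPM, lay below the adult values (interaction adjusted p = 2.17e-06).

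Cdkn1b was 1.76-fold higher in aged arterial ECs (90.6 and 96.8 against 42.4 and 64.8 CPM, adjusted p = 0.000348). It was 1.55-fold higher in metaphyseal (78.0 and 64.2 against 34.3 and 58.1 CPM, adjusted p = 0.00282) and 1.77-fold higher in type R ECs (129.8 and 119 against 61.1 and 80.3 CPM, adjusted p = 0.00375). The aged and adult libraries did not overlap, but adult replicate 1 was the lower adult library in each type. All 3 calls were lost without it, with log2 fold changes of 0.52, 0.28 and 0.64, and the metaphyseal one also without aged replicate 1 (0.46). Lower values were called in arterial ECs of juvenile (25.5 and 33.8 CPM, adjusted p = 0.0362) and PTH-treated mice (35.3 and 31.8 CPM, adjusted p = 0.038). Both were lost without adult replicate 2, at -0.52 and -0.36, and with DESeq2. The juvenile one was lost also without juvenile replicate 1 (-0.66) or 2 (-1.07). The PTH one was lost without PTH replicate 1 (-0.74) or 2 (-0.59) and without either alendronate library (-0.68 each).

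Of the INK4 genes, Cdkn2c was called in metaphyseal and Cdkn2d in sinusoidal ECs. Cdkn2c of metaphyseal ECs was 33.1 and 31.6 CPM in adult, 11.8 and 12.6 in aged (2.64-fold lower, adjusted p = 6.56e-07) and 20.7 and 18.8 in alendronate-treated libraries (1.64-fold lower, adjusted p = 0.00341). Neither group overlapped the adult one, and DESeq2 gave the alendronate difference an adjusted p of 0.0653. In alendronate-treated metaphyseal ECs 3 of 6 immediate-early genes were called higher, Atf3, Fosb and Fos. Their sum was 1605 to 1742 CPM, against 1200 to 1222 in adult ones, and their part was not tested. Cycling cells were 3.10% and 3.32% of adult, 2.72% and 1.23% of aged and 1.52% and 2.16% of alendronate-treated metaphyseal ECs. Their part in the differences within metaphyseal ECs was not tested. Juvenile metaphyseal ECs, with 7.73% and 8.75% cycling cells, held 38.4 and 50.1 CPM of Cdkn2c. Cdkn2d of sinusoidal ECs was 29.3 and 25.1 CPM in adult and 7.26 and 10.2 in aged libraries, a 3.12-fold fall (adjusted p = 2.52e-08). In arterial ECs it was 35.2 and 37.9 CPM in aged and 47.6 and 45.2 in adult libraries, lower by less than 1.5-fold, and the interaction test gave an adjusted p of 0.00044.

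The third question was how the genes differ between cycling and other ECs. Cells with at least 3 UMIs of mitotic genes such as Mki67, Top2a and Cdk1 were called cycling, and 1172 ECs were. Over 10 libraries, Cdkn2c was 8.97-fold and Cdkn2d 4.95-fold higher in cycling cells, and Cdkn1c was 5.58-fold lower. In all, 5 of 8 members were called, among 55.7% of the 12198 genes tested. Of all genes, 3262 were called higher and 3535 lower, and 2554 and 4470 with total counts. Cells carrying blood genes were 601 of the 1172 (51.3%). The 6 haematopoietic and the 4 haemoglobin genes were all called higher in cycling cells, with summed levels of 404 to 9599.6 CPM of the former against 23.5 to 250.0 in other cells. The haemoglobin genes summed to 541 to 138988 CPM in cycling and 83.0 to 1507 in other cells, with the highest value in an aged library. The contrast was therefore fitted again without any cell that held at least 2 UMIs of the haematopoietic or 5 of the haemoglobin genes, a choice made after the data were seen. This left 571 cycling cells, of which the 545 in 8 libraries were used, since both aged libraries then had fewer than 20, and 28.3% of 11615 genes were called. The haematopoietic sum was then 3.28 to 51.9 CPM in cycling and 3.32 to 40.6 in other cells, with Elane and Mpo below the filter on low counts. Cells were left out by these same genes, so the low sums cannot show that no blood cells remained. Of the 4 haematopoietic genes tested in this fit, 1 was still called higher in cycling cells. A fit on metaphyseal ECs alone still held blood RNA in its cycling cells, with 2 of 2 haematopoietic genes tested and 2 of 4 haemoglobin genes called higher. The megakaryocyte genes Pf4, Itga2b and Gp9 were higher in cycling cells over all ECs, and 0 of 2 tested were called without blood-gene cells. Of 6 immediate-early genes, 4 were lower in cycling cells over all ECs and 5 without blood-gene cells. In the latter fit they summed to 442 to 1097 CPM in cycling and 952 to 1927 in other cells, and their part was not tested.

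**Figure D5:**
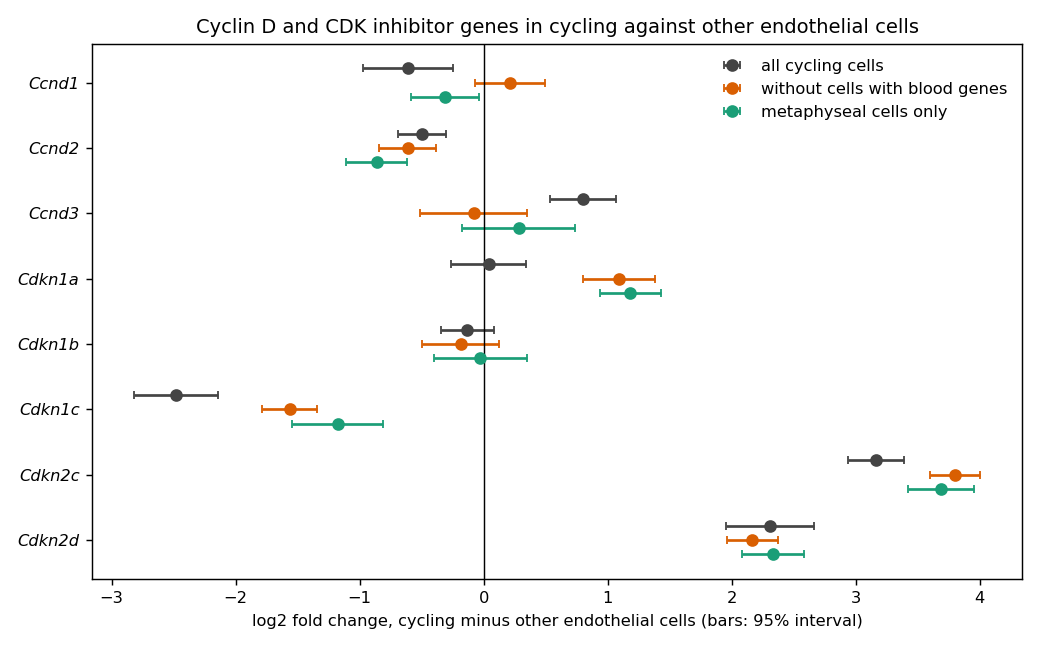
Log2 fold change of each gene in cycling against other ECs (horizontal axis; bars are 95% intervals) over all ECs, without cells with blood genes, and in metaphyseal ECs only. Cdkn2c and Cdkn2d are higher and Cdkn1c lower in all 3, while the calls of Ccnd1, Ccnd2, Ccnd3 and Cdkn1a differ between them.

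Cdkn2c, whose window with the E2F-type letters is printed above, ran from 71.7 to 173 CPM in cycling and from 10.3 to 14.4 in other ECs, and did not overlap. Its log2 fold change was 3.17 ± 0.12 (adjusted p = 3.72e-12), 3.80 ± 0.10 without blood genes and 3.69 in metaphyseal ECs alone, where 6 libraries had enough cycling cells. Cdkn2d ran from 72.5 to 235 CPM in cycling and from 19.2 to 28.7 in other ECs. The highest cycling values, 235 and 186 CPM, were those of the aged libraries. In the fit without blood genes, which lost these libraries, it was 96.5 to 166 CPM in cycling and 25.4 to 30.4 in other ECs. Cdkn2d gave 2.31 ± 0.18 (adjusted p = 2.99e-08), then 2.16 and 2.33. Cdkn1c was lower in cycling ECs in 10 of 10 libraries, at 21.9 to 135 CPM (median 46.0) against 203 to 426 (median 272). Its log2 fold change of -2.48 ± 0.17 (adjusted p = 6.76e-09) was -1.57 without blood genes and -1.18 in metaphyseal ECs, and each was called.

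The results for Ccnd3, Ccnd1 and Cdkn1a changed in the fit without cells with blood genes, which also lost the aged libraries. Ccnd3 was 13.2 to 49.9 CPM in cycling and 11.2 to 21 in other ECs, higher in 10 of 10 libraries (0.80 ± 0.14, adjusted p = 8.07e-05), but without blood genes it was higher in 4 and lower in 4 of 8 libraries (-0.080 ± 0.22, adjusted p = 0.796). Ccnd1 was lower in cycling cells in 8 of 10 libraries (-0.61 ± 0.19, adjusted p = 0.00752) and 0.21 ± 0.14 (adjusted p = 0.239) without blood genes. Its first call was also lost without aged replicate 2 (-0.55), alendronate replicate 1 (-0.56) or alendronate replicate 2 (-0.54). Cdkn1a was not called over all cells (0.039 ± 0.15, adjusted p = 0.828, interval -0.26 to 0.34). Without blood genes it was 150.3 to 402 CPM in cycling and 65.7 to 148 in other ECs, higher in 8 of 8 libraries (1.09 ± 0.15, adjusted p = 6.24e-07), and the log2 fold change was 1.18 in metaphyseal ECs. Ccnd2 was lower in 10 of 10 libraries, by less than 1.5-fold over all cells (-0.50 ± 0.10) and by more without blood genes (-0.61). Cdkn1b gave -0.13 ± 0.11 (adjusted p = 0.277) and -0.19 without blood genes, called in neither. In metaphyseal ECs alone Ccnd1 was -0.31 (adjusted p = 0.0914), Ccnd3 0.28 (adjusted p = 0.380) and Ccnd2 -0.86 (adjusted p = 7.57e-06), the last called. With both aged libraries left out and all cells of the others kept, Ccnd3 was 0.86, Ccnd1 -0.67, both called, and Cdkn1a 0.17 (adjusted p = 0.246), so each kept the call it had over 10 libraries.

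Lists of genes around the 8 members were counted beside them. The G1 list held 17 genes, such as Cdk4, cyclin E genes, Rb1 and E2F genes. In cycling cells 14 of its 17 genes were higher and 1, E2f5, lower, with Ccne1, E2f2 and Cks1b furthest. Blood-gene cells were 51.3% of the cycling cells. Without them, and without the aged libraries that then had too few cells, 14 were higher and 0 lower, where 28.3% of all genes were called in place of 55.7%. Against the other types the list is set beside the share of all genes called in the same contrast. By that measure 5 of 16 tested were higher in metaphyseal ECs, led by Myc (1.33), Cks1b (0.97) and Skp2 (0.93) (13.7% of all genes were called in either direction), and 5 were lower in type R ECs, led by E2f3 (-1.20), Cks1b (-1.04) and Cdk6 (-0.97) (22.5%). In arterial ECs Rb1, the retinoblastoma gene, was higher (0.80) and Myc lower (-0.77), 2 of 16 against 18.8% of all genes, and in sinusoidal ECs Ccne1 was higher (0.93), 1 of 16 against 28.7%. In the aged group 3 were higher, Rbl2 (1.55), Rb1 (1.36) and Ccne2 (0.73), and 7 lower, led by Cks1b (-2.39), Ccne1 (-1.72) and Cdk4 (-1.61). These 10 of 17 are near the background, since 50.9% of all genes were called there. In PTH-treated ECs 1 of 17 was called lower, E2f2, where 9.53% of all genes were called. In juvenile ECs edgeR called 0 of 17 (16.3% of all genes) and in alendronate-treated ECs 0 (6.58%). Of these, 5 and 1 had an unadjusted p under 0.05, and DESeq2 called 0 and 0.

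Cdkn2a and Cdkn2b are the other INK4 genes. Cdkn2a was 15.5 ± 7.48 CPM in metaphyseal ECs and 0.613 to 3.65 CPM on average in the other types (3.44 ± 0.19 on the log2 scale, adjusted p = 3.56e-17). Cdkn2b was 8.21 ± 1.85 CPM in metaphyseal ECs and 1.33 to 2.13 CPM in the other types (1.94 ± 0.20, adjusted p = 3.51e-10; SD and SE, n = 10 libraries). Cdkn2a, which is known to rise with age in many tissues, was lower in aged than in adult ECs (-1.06 ± 0.26, adjusted p = 0.0023) and also lower in juvenile ECs (-0.83 ± 0.25, adjusted p = 0.0168). Within metaphyseal ECs it was lower in both as well (-0.77 ± 0.29, adjusted p = 0.0291 in aged and -0.85 ± 0.28, adjusted p = 0.0289 in juvenile mice). So it was within sinusoidal ECs (-1.75 ± 0.63, adjusted p = 0.0213 in aged and -1.67 ± 0.51, adjusted p = 0.0151 in juvenile mice). There its level was near the floor, at 0.484 to 2.57 CPM over the 10 libraries, so these values rest on few UMIs. Cdkn2b was lower in aged metaphyseal ECs (-0.67 ± 0.29, adjusted p = 0.0493). It was higher over all ECs of PTH-treated mice (0.90 ± 0.18, adjusted p = 0.00275), where metaphyseal ECs were 35.9% to 39.0% of ECs against 18.2% to 18.5% in adult mice. Within metaphyseal ECs it was not called under PTH (0.27 ± 0.22, adjusted p = 0.550).

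The p53 list held 14 target genes other than Cdkn1a. In type R ECs 1 of 13 tested was higher, Btg2 (0.65), and 2 were lower, Pmaip1 (-1.65) and Phlda3 (-1.49), a share near the 22.5% of all genes called. In the aged group Eda2r (1.48) was higher and Bax (-1.37) and Gadd45a (-0.96) were lower, 3 of 14 where 50.9% of all genes were called. In juvenile ECs Btg2 (-0.82) and Pmaip1 (-0.69) were lower, 2 of 14 where 16.3% of all genes were called. In PTH-treated ECs Phlda3 (0.79) was higher, 1 of 14 where 9.53% were called. In alendronate-treated ECs edgeR called 0 of 14, with 7 at an unadjusted p under 0.05 and 0 called by DESeq2, where 6.58% of all genes were called. In the aged group the count is below that share, and in the other groups the counts are near theirs. Within type R ECs, where 10 were tested, edgeR and DESeq2 called 0 higher in each of the 4 groups, and the number higher at an unadjusted p under 0.05 was 1 in juvenile, 0 in aged, 0 in PTH-treated and 0 in alendronate-treated mice. There edgeR called 3 lower in aged mice, Gadd45a (-1.78), Bax (-1.02) and Ei24 (-0.72), and 1 lower under alendronate, Gadd45a (-1.34). DESeq2 called 2 lower in aged mice, 1 under PTH (Btg2, -0.59) and 0 under alendronate. In arterial ECs, where Cdkn1a rose in all 4 groups as well, 1 of 12 targets was higher in aged mice, Zmat3 (1.00), which DESeq2 did not call, and 2 were lower. None was higher in arterial ECs of the other groups by either tool, with 1, 1 and 2 higher at an unadjusted p under 0.05 in juvenile, PTH-treated and alendronate-treated mice. In aged sinusoidal ECs, where Cdkn1a was not called, Eda2r (2.27) and Trp53inp1 (0.86) were higher and 4 of 14 lower. These counts of the aged group were near or below the shares of all genes called, 37.7% in type R, 37.7% in arterial and 48.5% in sinusoidal ECs. In type R ECs the shares were 2.05% in juvenile, 1.31% in PTH-treated and 0.980% in alendronate-treated mice. In arterial ECs they were 6.79%, 2.18% and 1.36% in the same order. At such shares 0 called genes of 10 or 12 is near the background. The part of p53 in the levels of Cdkn1a was not tested. Of the 9 S-phase genes, 9 were higher in cycling cells (9 also without blood-gene cells), where 55.7% of all genes were called, and 28.3% without blood-gene cells. In aged ECs 9 were lower, where 4102 of 16084 genes were lower and 50.9% were called in either direction. In metaphyseal ECs 6 were higher, where 911 of 11340 genes were higher and 13.7% were called in either direction. Cycling cells were 1.48% and 1.47% of aged and 2.53% and 2.75% of adult ECs. Their median share was 2.91% of metaphyseal, 0.982% of sinusoidal, 0.418% of arterial and 0.426% of type R ECs. Their part in the S-phase and G1 counts was not tested.

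Last, the genes whose level over the 40 sums of type and library was most like that of each member were listed, among genes of at least 20 CPM on average. The values are Pearson correlations of log2 CPM, given as a description, since sums of 1 library share its depth and the aged libraries differ as a set. Cdkn2d was most like Klf13 (0.90), Ybx1 and Rab6a, Ccnd3 like Ncoa2 (0.88), Proser1 and Rps6kb1, and Ccnd2 like Ifit2 (0.86), Ppm1f and Prps2. Cdkn1c was most like Sult1a1 (0.84), Slc1a5 and Fam43a, Cdkn1b like Gigyf1 (0.84), Swt1 and Pkn2, Ccnd1 like Arhgap29 (0.83), Myo6 and Myo18a, and Cdkn1a like Wnk1 (0.82), Lgalsl and Sgms1. Cdkn2c had the weakest, Sept2 (0.75), Ctsa and Prkar1a. Between members, the correlations ran from -0.52 for Cdkn1b with Cdkn2c to 0.49 for Cdkn1a with Cdkn2d over the same 40 sums.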

How the data were processed

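Of the 10 libraries, each had 1 table of UMI counts per gene and cell. The counts were deposited by the authors without normalization; the submitters' notes name mm10, UMI-tools 1.1.2, STAR 2.7.10a and featureCounts 2.0.3 of Subread, and the annotation release and strand setting are not given in the sources used here. The members and lists were chosen with earlier results of these data known. The 276 symbols beginning with U, found in the aged libraries alone, were left out, so the cycling gate used 7 genes without Ube2c. A sinusoidal, arterial or metaphyseal cell needed at least 2 UMIs of its markers, at least 2 times those of each of the other two and under 2 of type R. A type R cell needed at least 2 UMIs of Timp4 and Aqp7, more than of Stab2 and of Gja4. Sums of at least 20 cells were tested with edgeR 4.0.16 (R 4.3.3; quasi-likelihood, filterByExpr, TMM), with Benjamini-Hochberg adjustment over all genes tested. Contrasts between types and between cycling and other cells had the library as a block, and those between groups had no block. Calls needed an adjusted p under 0.05 and 1.5-fold, and interactions an adjusted p under 0.05. Intervals of log2 fold changes are 95% intervals from the normal distribution and the SE. The CPM of types come from 1 fit over all types and those of groups within a type from a fit of that type. Doublets were not called. Cells that met no gate had no type, but a typed cell could hold fewer UMIs of another type's markers. For type R cells the metaphyseal markers had no limit, so the gates do not exclude doublets. The 5% deepest cells were left out as an alternative. Of the cells, 9.39% of sinusoidal, 19.5% of arterial, 14.6% of metaphyseal and 24.9% of type R ECs would not keep their type at 3 marker UMIs in place of 2. The 2 libraries of a group differed by more than counting noise, with a chi-square over its degrees of freedom of 2.08 to 7.65.

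Genes named are the 8 members, up to 3 called genes per list and contrast, those that changed most, and the 3 genes most like each member; list genes named beyond these, and single uncalled members, were named after their values were seen. On simulated data with 200 changed genes, edgeR recovered 190 between types (11340 genes), 160 between groups (16084 genes) and 194 between cycling and other cells (12198 genes). It also called 4, 11 and 4 unchanged genes in the same order. The genes were changed 2-fold, drawn from those of higher counts and given 1 fixed spread. The recovery therefore does not carry over to members with few UMIs. Alternatives were DESeq2 1.42.0, total counts, other gates, other filters and each library left out. Python 3.11.15 with pandas 2.3.3 and numpy 2.4.6 built the sums, and matplotlib 3.10.9 the plots.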

Additional observations from a re-analysis of the deposited data

Results flagged for a closer look

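Each result in this paragraph had a group effect that differed between the 4 endothelial types by an interaction test of edgeR, given as an adjusted p over 11340 genes. All comparisons share the adult libraries. For Cdkn1a the adjusted p was 2.92e-08 in juvenile, 1.66e-12 in aged, 0.00516 in PTH-treated and 0.000317 in alendronate-treated mice, with the rises largest in type R and arterial ECs. For Ccnd2 it was 4.58e-09 in juvenile, 3.26e-07 in aged and 0.00442 in PTH-treated mice. Cdkn1c gave 2.17e-06 in juvenile, 2.68e-05 in aged and 2.0e-07 in PTH-treated mice. In the aged group Ccnd1 gave 1.91e-07, Cdkn2c 0.00946 and Cdkn2d 0.00044. The aged values carry the differences of those libraries in depth and gene symbols, whose part was not tested.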

How the results depend on the processing

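Over 76 called differences of single members, and Cdkn1a and Ccnd2 in cycling cells, 1365 values were computed under alternatives. Of these, 1262 kept their direction and side of the threshold and 103 did not, 10 of them by a change of direction. Apart from these, 372 counts of called members stayed within 1.5 times the main count and 40 did not. Direction changed for Ccnd1 (0.21) and Ccnd3 (-0.080) in cycling cells without blood genes, for Cdkn1c between arterial and metaphyseal ECs with types from other markers (0.24) and for Cdkn1a in metaphyseal ECs of the adult libraries alone (0.43). Cdkn1a in cycling cells, not called at 0.039, was -0.0044 with a gate of 5 UMIs, -0.17 with total counts and -0.074 to 0.16 with 1 library left out, below 0 without either adult or either PTH library. The cause was not tested.

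In counts of the 8 members called, the juvenile group over all ECs went from 1 to 2 with an endothelial gate of 4 UMIs, with total counts, without blood genes or without cycling cells, and to 3 when thinned to 1000 UMIs. The alendronate group went from 1 to 2 when thinned. Between types, arterial ECs went from 2 to 1 with other markers, sinusoidal ECs from 4 to 2 in adult libraries alone, and type R ECs from 2 to 4 with a gate of 3 UMIs and to 1 with other markers or without both aged libraries. With DESeq2, juvenile arterial ECs went from 5 to 3, PTH-treated arterial ECs from 2 to 1 and alendronate-treated metaphyseal ECs from 1 to 0. Alendronate-treated sinusoidal ECs went from 0 to 1 with a gate of 3 UMIs or without blood genes. With type R cells of fewer than 2 metaphyseal UMIs, juvenile type R ECs went from 2 to 1 and PTH-treated ones from 3 to 1.

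With 1 library left out, the counts ran from 2 to 2 in arterial, 2 to 3 in metaphyseal, 3 to 5 in sinusoidal and 2 to 4 in type R ECs between types, and from 4 to 5 in cycling cells. Over all ECs they ran from 1 to 2 in juvenile, 4 to 6 in aged, 0 to 0 in PTH-treated and 1 to 2 in alendronate-treated mice. In sinusoidal, arterial, metaphyseal and type R ECs they ran from 3 to 3, 3 to 5, 0 to 2 and 2 to 2 in juvenile, 2 to 3, 1 to 3, 3 to 5 and 3 to 5 in aged, 0 to 1, 0 to 2, 1 to 1 and 1 to 3 in PTH-treated, and 0 to 1, 1 to 1, 1 to 2 and 1 to 1 in alendronate-treated mice.

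The fit with the replicate number as a block left every call of a member between groups as it was, with 6 of 32 and 33 of 128 called with and without it and Cdkn1a at 1.04 in aged ECs. Same-numbered libraries did not deviate together (correlations of -0.103 to 0.0292 over 10 pairs of groups), so they share only a number. With total counts the median of all genes moved to -0.27 in cycling cells, 0.39 in aged sinusoidal and 0.17 in aged metaphyseal ECs. Of 32 shares of cells with a UMI, 29 moved by more than 1 SD when thinned to 2000 UMIs in place of 1000. Type R ECs of the juvenile group and of PTH replicate 1 rested on 25 to 44 cells a library, which limits their values.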
